A study of Mus musculus with 62 samples.

Results

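Chemokines are small secreted proteins that attract and hold immune cells, and 10 of their genes were followed in mouse hippocampus and in HT-22 cells, a mouse hippocampal cell line. The genes are Ccl2, Ccl3, Ccl4, Ccl6, Ccl7, Ccl12, Cxcl10, Cxcl12, Cxcl16 and Cx3cl1. They were taken by gene symbol, whatever their level, from the 53975 gene identifiers of the deposited gene tables, and each had 1 identifier. Of the 62 libraries in the series, the 31 long-RNA libraries carry these genes.

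The mouse libraries came from hippocampus, with the left and right sides pooled. APP stands here for the strain APP NL-G-F, an App knock-in that carries humanised amyloid beta sequence and disease mutations under the mouse promoter. WT stands for C57BL/6J. There were 3 APP libraries at each of 3, 6 and 12 months of age, 2 WT libraries at 3 months and 3 at each of 6 and 12 months. HT-22 cells at passage 4 received an LNA, a locked nucleic acid oligonucleotide, for 24 h. The LNA was directed against Hsf1 (150 nM, called anti-Hsf1) or was a scramble (50 uM, as the labels give it). All HT-22 cells then received 30 uM peptide, either amyloid beta 1-42 (Aβ42) or the reverse 42-1 sequence. Scramble-treated cells gave 4 libraries per peptide and anti-Hsf1-treated cells gave 3. The labels do not say whether the HT-22 libraries came from separate cultures, so p-values there measure only the spread between libraries, which may be technical.

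Chemokines act through G-protein-coupled receptors on the responding cell, and several ligands usually share 1 receptor. Inflammatory chemokines are made on demand, mostly downstream of NF-kB, interferon-regulated or AP-1 factors, whereas homeostatic chemokines are made constantly and position cells. In the brain, microglia are a known source of CC chemokines such as Ccl3, Ccl4 and Ccl6, neurons of Cx3cl1, and vascular, meningeal and some neuronal cells of Cxcl12. Cx3cl1 and Cxcl16 are made as membrane-bound proteins with a mucin stalk and are released by the proteases Adam10 and Adam17.

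The 250 bases before the RefSeq transcription start are in the RefSeq promoter table (GRCm38.p6) for 6 of the 10 genes. Ccl2, Ccl4, Ccl7 and Cxcl16 have no entry there. The sequences of Cxcl10, Ccl6, Ccl12 and Ccl3 are shown, because these genes were highest in 12-month APP hippocampus. Capitals mark matches to 4 motifs, read on both strands and chosen after the sequences had been seen. The motifs were the NF-kB consensus, GAAANNGAAA (an interferon-response type), TGANTCA (an AP-1 type) and the ETS-type core AGGAAG. The last was met on the other strand, so it reads CTTCCT in these sequences.
Cxcl10, chr5:92348890-92349139, minus strand: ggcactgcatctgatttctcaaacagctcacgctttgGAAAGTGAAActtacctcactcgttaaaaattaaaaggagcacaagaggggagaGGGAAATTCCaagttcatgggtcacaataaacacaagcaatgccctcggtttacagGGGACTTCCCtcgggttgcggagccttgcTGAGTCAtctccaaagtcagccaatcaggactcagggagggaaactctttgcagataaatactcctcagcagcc
Ccl6, chr11:83593088-83593337, minus strand: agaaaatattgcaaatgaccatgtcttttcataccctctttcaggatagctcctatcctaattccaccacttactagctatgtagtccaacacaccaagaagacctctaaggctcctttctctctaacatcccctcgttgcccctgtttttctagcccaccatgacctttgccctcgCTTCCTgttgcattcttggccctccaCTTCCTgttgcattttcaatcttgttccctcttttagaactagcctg
Ccl12, chr11:82101595-82101844, plus strand: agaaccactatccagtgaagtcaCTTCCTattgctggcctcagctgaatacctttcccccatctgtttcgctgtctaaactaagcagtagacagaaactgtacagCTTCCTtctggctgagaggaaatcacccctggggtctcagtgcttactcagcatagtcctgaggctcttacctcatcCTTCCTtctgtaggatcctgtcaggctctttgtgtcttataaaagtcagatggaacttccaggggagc
Ccl3, chr11:83649379-83649628, minus strand: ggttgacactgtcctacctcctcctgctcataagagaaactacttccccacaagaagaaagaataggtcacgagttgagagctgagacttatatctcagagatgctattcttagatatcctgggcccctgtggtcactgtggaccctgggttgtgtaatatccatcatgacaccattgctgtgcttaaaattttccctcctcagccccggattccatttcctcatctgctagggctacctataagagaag

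The Cxcl10 stretch held 2 matches to the NF-kB consensus, the first base of each lying 159 and 103 bases upstream of the start. It also held 1 match to GAAANNGAAA at 213 bases and 1 to the palindrome TGANTCA at 74 bases. Among 32851 promoters of the same length, 3.90% held the NF-kB consensus, 2.98% held GAAANNGAAA and 6.75% held TGANTCA. The ETS-type core was matched 2 times in Ccl6, 3 times in Ccl12 and 1 time in Cx3cl1, and 29.5% of all promoters held it. The Cx3cl1 stretch (chr8:94771930-94772179, plus strand) crosses the deposited gene start, 94772009, so part of it lies within the gene. Ccl3 and Cxcl12 held none of the 4. A match is a stretch of letters and was not tested as a binding site.

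Levels are given as scaled TPM, a share of all transcripts corrected for gene length and brought to a common scale within the hippocampus libraries or within the HT-22 libraries by median-of-ratios factors. Relative depth was the most common ratio of Coverage to FPKM in a library, shared by 45.3% to 48.8% of entries with FPKM above 0. It ran from 1.42 to 3.04 in hippocampus and from 0.724 to 2.60 in HT-22. Changes were tested with limma on log2(scaled TPM + 1), a scale that understates the change of low genes, and were called at a Benjamini-Hochberg adjusted p below 0.05 over all genes tested. The standard fit kept genes whose TPM averaged 1 or more. Only 3 of the 10 chemokines passed that filter in hippocampus (Ccl6, Cxcl12 and Cx3cl1) and 3 in HT-22 (Ccl2, Ccl7 and Cxcl10). A second fit lowered that limit to 0.1, which 9 passed in hippocampus and 6 in HT-22. In hippocampus Ccl2, Ccl4 and Ccl12 reached that lower limit through the 12-month APP libraries, so the number of them called there is no support for a change of chemokines as a group.

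Several libraries stood apart. Replicate 2 of APP at 6 months had a summed level of 103 for 8 markers of plaque-associated microglia, against 27.3 to 45.7 in every other hippocampus library outside the 12-month APP group. In HT-22, 3 scramble libraries (Aβ42 replicates 3 and 4, reverse peptide replicate 4) had summed levels of 8 immediate-early genes of 1066 to 1248, against 128 to 201 in the other 11. The 11 libraries of APP mice and 3-month WT mice carried Xist at 71.2 to 138, and the 6 WT libraries at 6 and 12 months carried Ddx3y at 18.6 to 28.3 and Xist at 0.266 to 0.522. The labels give no sex, and genotype and the sex these transcripts mark cannot be told apart in the comparisons of APP with WT at 6 and 12 months. The comparison of APP mice at 12 and 3 months does not cross that split. HT-22 cells had 6 of 8 neuronal markers (Rbfox3, Snap25, Syt1, Neurod6, Prox1 and Gad1) at 0 in all 14 libraries. The sum of all 8, with Slc17a7 and Camk2a, was at most 1.24, so a neuronal identity is not borne out by these markers. Col1a1, from a list of fibroblast markers, was at least 588, while Lum of the same list was at 0 in all 14. Hsf1, the target of the LNA, was 61.7 ± 9.51 (SD, n = 4) with Aβ42 and scramble and 47.2 ± 4.06 (n = 3) with Aβ42 and anti-Hsf1, and 53.8 ± 7.96 (n = 4) and 48.1 ± 4.81 (n = 3) with the reverse peptide, ranges that overlapped in both pairs.

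In hippocampus several inflammatory CC chemokines were low at 3 months and were highest in 12-month APP mice. Ccl6, Ccl3, Ccl4 and Ccl12 had their 3 highest levels in the 3 APP libraries at 12 months. Ccl2 and Ccl7 did not follow, and Cxcl10 and Cxcl16 were also at their highest mean there. The homeostatic Cxcl12 and the neuronal Cx3cl1 had no higher level in 12-month APP mice. The share of all genes that set groups apart without overlap is not given here. Groups that do not overlap, here and below, are therefore a description.

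Ccl6 (ENSMUSG00000018927, chromosome 11, 83587882 to 83593087, minus strand) encodes a CC chemokine made by myeloid cells, and it was the only one of the 6 CC chemokines detected in every hippocampus library. Its scaled TPM was 14.6, 9.42 and 9.63 in the APP libraries at 12 months and 0.846, 0.574 and 0.740 in the WT libraries of that age. It was 1.03, 4.97 and 1.5 in APP and 1.16, 0.900 and 0.527 in WT at 6 months, and 0.295, 1.04 and 0.529 in APP and 0.659 and 1.175 in WT at 3 months. The 12-month APP libraries lay above all 14 others, and replicate 2 of APP at 6 months lay above the remaining 13. The mean at 12 months was 11.2 ± 2.92 in APP and 0.720 ± 0.137 in WT (SD, n = 3 each), a ratio of 15.6. The order of group means below 12-month APP was 2.50 in 6-month APP, then 0.917, 0.862 and 0.720 in WT at 3, 6 and 12 months and 0.622 in 3-month APP, and each of these neighbours overlapped.

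In the standard fit Ccl6 rose by 2.81 ± 0.32 on the log2 scale (SE) in APP against WT at 12 months (limma, adjusted p = 0.000895). It was the 1 chemokine called of 3 tested in that comparison, where 0.454% of the 17840 genes were called and 0.432% higher. In APP mice from 3 to 12 months Ccl6 rose by 2.91 ± 0.32 (limma, adjusted p = 0.000648), again 1 of 3 called, where 3.34% of all genes were called and 1.86% higher. Leaving out each library in turn kept both calls, with adjusted p from 0.00474 to 0.00954 and from 0.00105 to 0.00525. The median log2 change over the 3 chemokines tested at 12 months was -0.49, and that over all genes was 0.

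**Figure D1:**
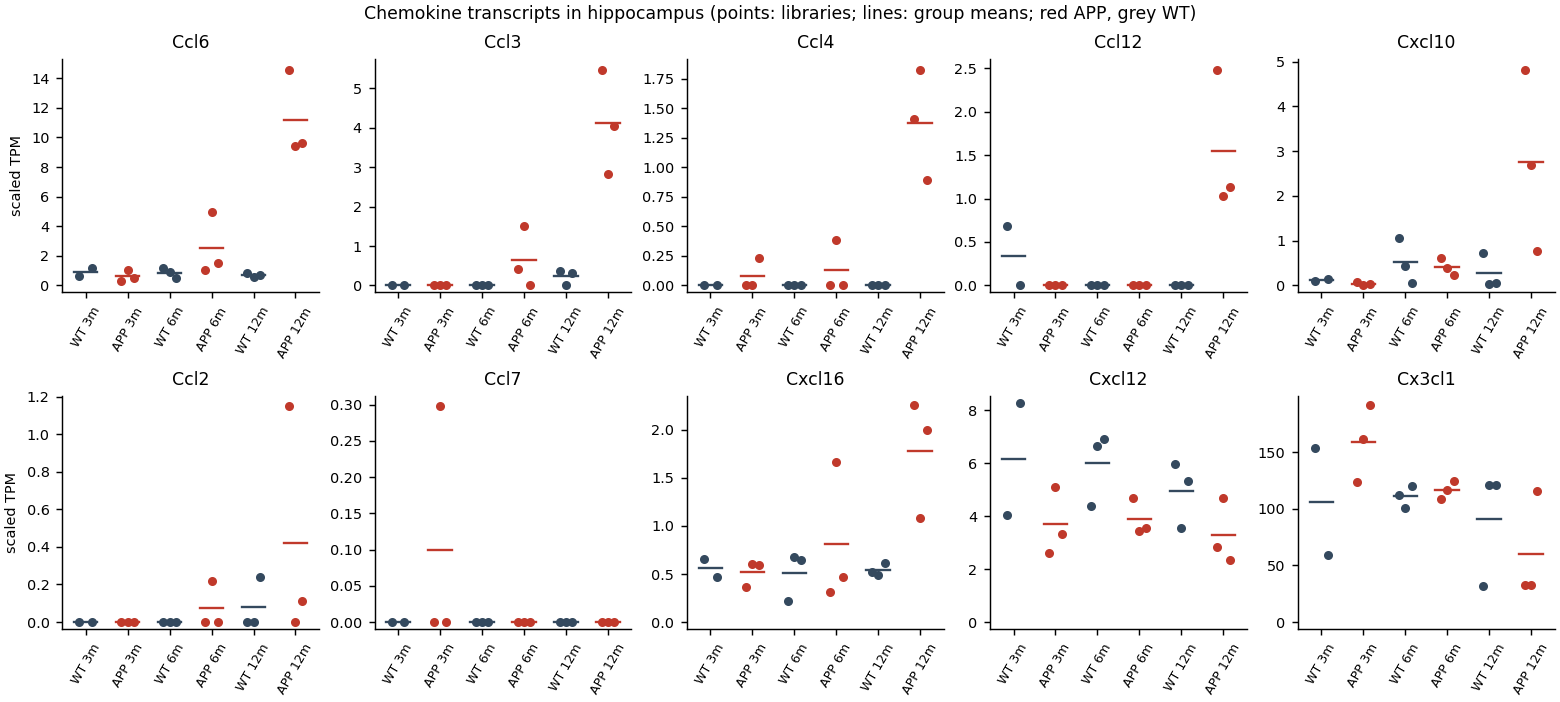
Scaled TPM of the 10 chemokine genes in each of the 17 hippocampus libraries (points), by genotype and age, with group means as lines and a linear axis of its own for each gene. Ccl6, Ccl3, Ccl4 and Ccl12 have all 3 points of 12-month APP above every other library, whereas Cxcl12 and Cx3cl1 do not.

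At 6 months and 3 months no chemokine was called in the standard fit. At 6 months 0 of 3 passed, where 1.43% of genes were called, and 1 of 3, Ccl6, had an unadjusted p below 0.05 (log2 change 0.76 ± 0.32, limma, adjusted p = 0.252). Without replicate 2 of APP that change was 0.29 (adjusted p = 0.670). At 3 months 0 of 3 were called and 0 had an unadjusted p below 0.05, where 0.297% of genes were called. In APP mice from 3 to 6 months 0 of 3 were called, where 2.16% of genes were called, and the log2 change of Ccl6 was 0.97 ± 0.32 (unadjusted p = 0.00934 and adjusted p = 0.124 by limma). Without replicate 2 of APP at 6 months it was 0.50 (adjusted p = 0.420). With TPM used as deposited, Ccl6 passed at 6 months (1.15, adjusted p = 0.00575) and from 3 to 6 months in APP (1.19, adjusted p = 0.0295), a scaling under which 10339 and 1270 of all genes passed in place of 255 and 386. In WT mice from 6 to 12 months 0 of 3 were called and 0 had an unadjusted p below 0.05, where 0% of genes were called and 1199 had an unadjusted p below 0.05.

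With the lower limit of 0.1 the outcome was the same, by limma. At 3 months 0 of 9 chemokines were called and 0 had an unadjusted p below 0.05, where 0.0966% of genes were called. At 6 months 0 of 9 were called and 2, Ccl3 and Ccl6, had an unadjusted p below 0.05, where 0.562% of genes were called. In APP from 3 to 6 months 0 of 9 were called and the same 2 had an unadjusted p below 0.05, where 0.891% of genes were called. In WT from 6 to 12 months 0 of 9 were called and 0 had an unadjusted p below 0.05, where 0% of genes were called.

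Whether the genotype difference in Ccl6 grew between 6 and 12 months was tested as an interaction. The difference was larger at 12 months by 2.05 ± 0.46 on the log2 scale, which did not pass (limma, unadjusted p = 0.000471, adjusted p = 0.162), and 0 of 3 chemokines were called where 0.0224% of genes were. Without replicate 2 of APP at 6 months, the library high in plaque-associated microglia markers, the same change was 2.51 and passed (limma, adjusted p = 0.00421). That library also had the highest Ccl6 level of the 6-month groups (4.97), so leaving it out by itself widens the change. It was the only 1 of 22 alternative fits in which the change passed. With the lower limit 0 of 9 were called and 5 had an unadjusted p below 0.05, where 0.0107% of genes were called.

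Ccl3 and Ccl4 are macrophage inflammatory proteins whose genes lie 13228 bases apart on chromosome 11. Ccl3 (ENSMUSG00000000982, 83647844 to 83649355, minus strand) was at 5.47, 2.83 and 4.05 in APP at 12 months and at 0.378, 0 and 0.315 in WT of that age. It was 0.417, 1.52 and 0 in APP at 6 months and was listed at 0 in all 3 WT libraries at 6 months and in all 5 libraries at 3 months. Ccl4 (ENSMUSG00000018930, 83662584 to 83664683, plus strand) was at 1.41, 1.83 and 0.897 in APP at 12 months, at 0.232 in 1 APP library at 3 months and at 0.382 in 1 at 6 months. It was listed at 0 in the other 12 libraries, all 8 WT libraries among them. Both genes thus separated 12-month APP from every other library, and at 6 months both were highest in replicate 2 of APP, the library high in plaque-associated microglia markers.

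Ccl12 (ENSMUSG00000035352, chromosome 11, 82101845 to 82103400, plus strand) encodes a monocyte chemoattractant that signals through Ccr2. It was at 2.48, 1.03 and 1.13 in APP at 12 months, at 0.680 in 1 WT library at 3 months, and at 0 in the other 13. The depth behind these low values was small. Coverage is the deposited read depth, with the highest entry of each gene kept. It was 3.61 to 6.51 for Ccl3, 1.12 to 2.33 for Ccl4 and 1.31 to 2.95 for Ccl12 in the 12-month APP libraries. For Ccl6 it was 7.80 to 11.3 there.

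In the fit with the lower filter 4 of 9 chemokines were called at 12 months, all higher in APP, where 0.422% of 27955 genes were called in either direction and 0.397% higher. Ccl3 rose by 2.04 ± 0.27 on the log2 scale (limma, adjusted p = 0.00304), Ccl4 by 1.23 ± 0.16 (adjusted p = 0.00264) and Ccl12 by 1.304 ± 0.19 (adjusted p = 0.00691), besides Ccl6. From 3 to 12 months in APP mice 5 of 9 were called higher, where 1.87% of genes were called in either direction and 1.14% higher. Ccl3 rose by 2.32 ± 0.27 (limma, adjusted p = 0.00114), Ccl4 by 1.13 ± 0.16 (adjusted p = 0.00260) and Ccl12 by 1.304 ± 0.19 (adjusted p = 0.00357). The libraries of both ages carried Xist. The 2 comparisons share the 12-month APP libraries. limma pools the spread over all groups, and groups in which Ccl4 or Ccl12 was listed at 0 add none to it. Ccl4 and Ccl12 also entered this fit through the 12-month APP libraries, so their p-values and these counts are a description, not support. With a pseudocount of 0.1 in place of 1, Ccl3 missed the threshold at 12 months (adjusted p = 0.0729).

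**Figure D2:**
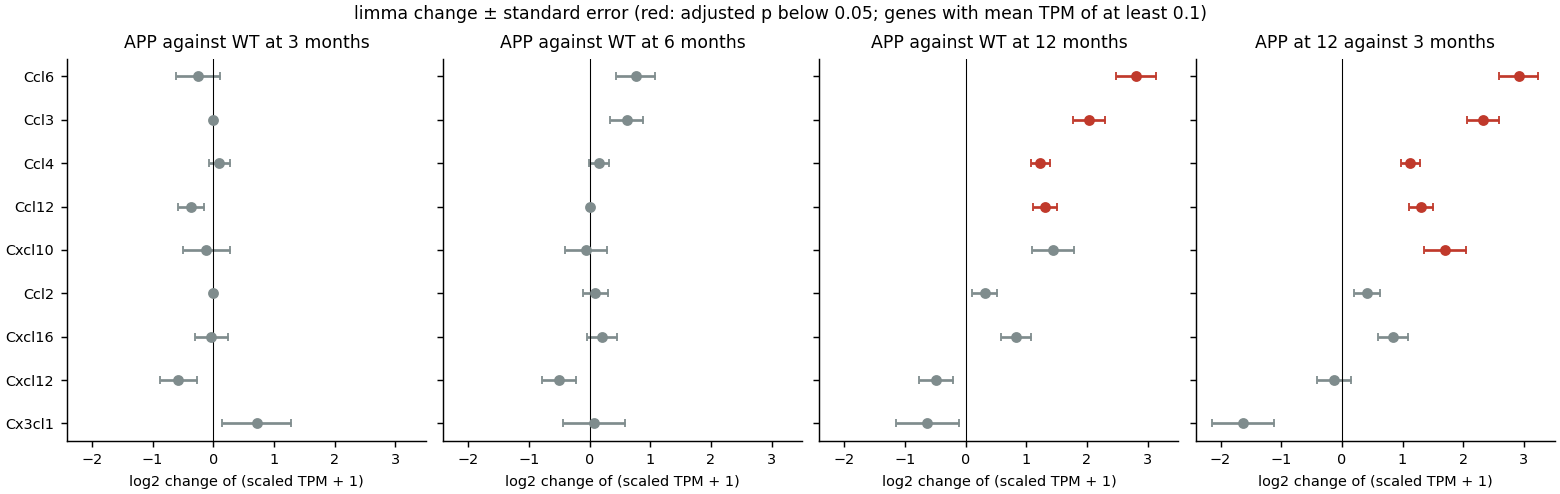
Log2 change of (scaled TPM + 1) with its standard error for the 9 chemokines above the lower limit of 0.1, in 4 hippocampus comparisons, with red marking an adjusted p below 0.05. Ccl6, Ccl3, Ccl4 and Ccl12 are red at 12 months and from 3 to 12 months in APP, Cxcl10 in the latter alone, and none at 3 or 6 months. Ccl4 and Ccl12 reached the lower limit through the 12-month APP libraries.

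Ccl2 and Ccl7, the other monocyte chemoattractants of that cluster, were almost absent from hippocampus. Ccl2 (ENSMUSG00000035385, chromosome 11, 82035571 to 82037453, plus strand) was at 1.15, 0 and 0.110 in APP at 12 months, at 0.219 in replicate 2 of APP at 6 months, at 0.242 in 1 WT library at 12 months, and at 0 in the other 12. Its difference at 12 months, 0.31 ± 0.21, did not pass (limma, adjusted p = 0.865). Ccl7 (ENSMUSG00000035373, 82045712 to 82047525, plus strand) was at 0.298 in 1 APP library at 3 months and at 0 in the other 16. These genes are close in sequence to Ccl12 and to each other, and the sources used here do not say how reads were split between such copies.

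Along chromosome 11 the chemokine genes are ordered Ccl2, Ccl7, Ccl11, Ccl12, Ccl8 and Ccl1, and after a gap of 1220087 bases Ccl5, Ccl9, Ccl6, Ccl3 and Ccl4. Neighbours in this order did not share 1 level in 12-month APP hippocampus. Ccl12 had a mean of 1.55 while Ccl11 and Ccl8 on either side were at 0, and Ccl6 had a mean of 11.2 while Ccl9, 9245 bases away, had 0.571. Against 12-month WT, the means of Ccl2, Ccl12, Ccl5, Ccl9, Ccl6, Ccl3 and Ccl4 were higher in 12-month APP. Of these, Ccl2, Ccl5 and Ccl9 were not called. The mean of Ccl8 was lower in 12-month APP (0 against 0.408), and Ccl7, Ccl11 and Ccl1 were at 0 in both groups.

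Cxcl10 (ENSMUSG00000034855, chromosome 5, 92346638 to 92348889, minus strand) is an interferon-inducible ligand of Cxcr3. It was at 4.82, 2.69 and 0.780 in APP at 12 months and at 0.724, 0.0428 and 0.0530 in WT of that age, ranges that did not overlap. Replicate 1 of WT at 6 months, at 1.06, lay above the lowest of the 12-month APP libraries. At 3 months the 5 libraries lay between 0 and 0.154. The mean in 12-month APP was 2.76 ± 2.02 (SD, n = 3) and that in WT 0.273 ± 0.390. The difference, 1.44 ± 0.35 on the log2 scale, did not pass (limma, adjusted p = 0.124), and it passed without replicate 3 of APP at 12 months (1.90, adjusted p = 0.0153). From 3 to 12 months in APP Cxcl10 rose by 1.70 ± 0.35 (limma, adjusted p = 0.0209). That call was lost in 4 of the 6 fits that left out a library, those without APP replicates 1 and 2 at 3 months and without APP replicates 1 and 2 at 12 months, with adjusted p up to 0.0861. It was also lost with only the groups compared (limma, adjusted p = 0.119). Coverage in the 12-month APP libraries was 2.20, 1.52 and 0.677.

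The membrane-bound Cxcl16 (ENSMUSG00000018920, chromosome 11, 70453983 to 70459984, minus strand), ligand of Cxcr6, was detected in all 17 hippocampus libraries. It was at 2.25, 1.09 and 2.00 in APP at 12 months and at 0.520, 0.487 and 0.609 in WT of that age, so the 2 groups did not overlap. Outside the 12-month APP group it lay between 0.215 and 0.675, apart from 1.66 in replicate 2 of APP at 6 months. Its difference at 12 months was 0.83 ± 0.24 (limma, adjusted p = 0.285) and from 3 to 12 months in APP 0.85 ± 0.24 (adjusted p = 0.103), neither of which passed. The highest Coverage of Cxcl16 in any hippocampus library was 2.35.

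Cxcl12 (ENSMUSG00000061353, chromosome 6, 117168535 to 117181367, plus strand), the homeostatic ligand of Cxcr4 and of the scavenging receptor Ackr3, was detected in every hippocampus library between 2.34 and 8.26. At 12 months it was 2.83, 4.71 and 2.34 in APP and 5.96, 3.56 and 5.34 in WT. Group means ran from 6.16 in 3-month WT through 6.00, 4.95, 3.90 and 3.69 to 3.29 in 12-month APP, with every WT mean above every APP mean and neighbours overlapping. With TPM as deposited the 6-month means were 4.94 in APP and 4.69 in WT, the other way round. The differences of APP from WT were -0.58 ± 0.31 at 3 months, -0.50 ± 0.27 at 6 months and -0.49 ± 0.27 at 12 months on the log2 scale. None passed (limma, adjusted p = 0.449, 0.383 and 0.819).

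Cx3cl1, or fractalkine (ENSMUSG00000031778, chromosome 8, 94772009 to 94782427, plus strand), was the most abundant of the 10 in hippocampus, with a median of 117 over the 17 libraries. It was 124, 161 and 192 in APP and 154 and 58.9 in WT at 3 months, and 108, 117 and 125 in APP and 113, 100.3 and 119.8 in WT at 6 months. At 12 months it was 32.7, 32.6 and 116 in APP and 31.9, 121 and 121 in WT. The values fell into 4 low libraries at 31.9 to 58.9 and 13 at 100.3 to 192, and the low ones came from 12-month APP (replicates 1 and 2), 12-month WT (replicate 1) and 3-month WT (replicate 2). The change from 3 to 12 months in APP, -1.63 ± 0.52 on the log2 scale, did not pass (limma, adjusted p = 0.112). It passed without the third 12-month APP library (-2.22, adjusted p = 0.0423). The genotype difference at 12 months was -0.63 ± 0.52 (adjusted p = 0.934).

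TPM and Coverage did not fall equally in those 4 libraries. Coverage of Cx3cl1 over relative depth was 6.24 to 11.4 there and 33.6 to 68.1 in the other 13. The amount of that coverage per TPM was 0.160 to 0.247 against 0.258 to 0.435. For a gene with several entries, TPM was summed and the highest Coverage kept, so split entries alone can lower that amount. Whether Cx3cl1 had several entries in any library was not examined. Relative depth was 1.81 to 2.02 in the 4 libraries and 1.42 to 3.04 in the others. The summed level of 8 neuronal markers was 2141 to 2535 in the 4 and 1460 to 2489 in the others, so these markers were not lower in the 4 libraries.

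**Figure D3:**
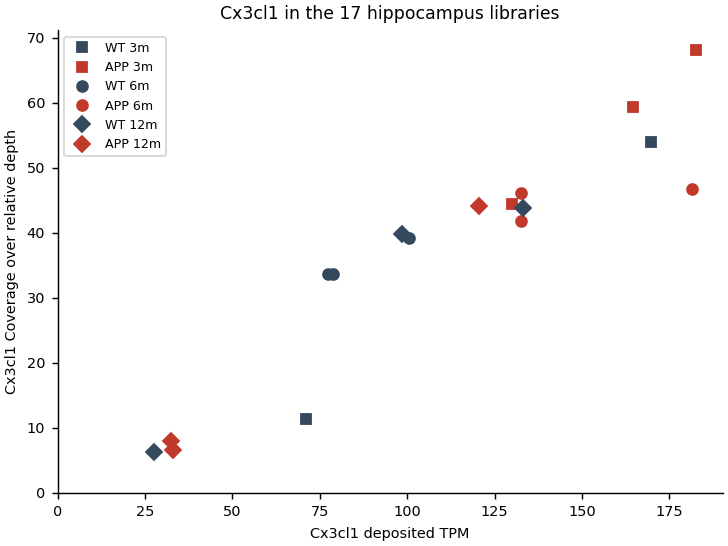
Cx3cl1 in the 17 hippocampus libraries, with deposited TPM on the horizontal axis and Coverage over relative depth on the vertical axis, red for APP and grey for WT. Squares are 3 months, circles 6 months and diamonds 12 months, and 4 libraries from 3 groups lie at a Coverage of 6.24 to 11.4.

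Markers of microglia were highest in the same 12-month APP libraries. Replicate 2 of APP at 6 months, next in these markers, was also next in Ccl6, Ccl3 and Ccl4 and high in Cxcl16, but had Ccl12 at 0. The summed level of 8 plaque-associated microglia markers (Trem2, Tyrobp, Cst7, Itgax, Clec7a, Lpl, Cd68 and Axl) was 139 to 196 in 12-month APP and 41.7 to 44.6 in 12-month WT. In the standard fit 5 of the 8 were called higher at 12 months and 8 of 8 from 3 to 12 months in APP. Over all genes 0.432% and 1.86% were called higher in these 2 comparisons. The sum of 8 general microglia markers was 322 to 440 in 12-month APP, 234 in replicate 2 of APP at 6 months, and 113 to 183 in the other libraries. Of these general markers 4 of 8 were called higher at 12 months and 5 of 8 from 3 to 12 months in APP. In bulk tissue more cells of a type and more RNA per cell cannot be told apart. Over the 17 libraries, the genes whose log2 levels were most like those of Ccl6 were Csf3r (Pearson r = 0.978), Cst7 (0.975) and Itgax (0.972), a description across libraries that share groups and scaling.

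All 5 markers of monocytes and neutrophils (Ly6c2, S100a8, S100a9, Ly6g and Plac8) were at 0 in the 3 APP libraries at 12 months. They were also all at 0 in the 3 WT libraries at 6 months, and their sum was at most 1.51 in any hippocampus library. Of 5 T and NK cell markers, Cd3d and Nkg7 were at 0 in every hippocampus library. The sum of the 5 was 0.119 to 0.414 in 12-month APP, 0 to 0.238 in 12-month WT and up to 1.03 in 3-month APP. The sum of 5 border macrophage markers was 2.38 to 6.11 in 12-month APP and 2.07 to 5.01 in 12-month WT. Among 7 astrocyte markers Gfap alone was called higher at 12 months (537 ± 67.5 against 129 ± 4.51, SD, n = 3 each, limma, adjusted p = 0.00630). The summed choroid plexus markers varied from 35.1 to 2417 over the hippocampus libraries, and were 1411 to 1640 in 12-month APP and 417 to 1300 in 12-month WT. The sum of 6 endothelial markers was 12.8 to 15.4 in 12-month APP and 7.78 to 10.8 in 12-month WT, without overlap, and 11.5 to 15.7 in 3-month APP. The part of any of these cell types in the chemokine differences was not tested.

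**Figure D4:**
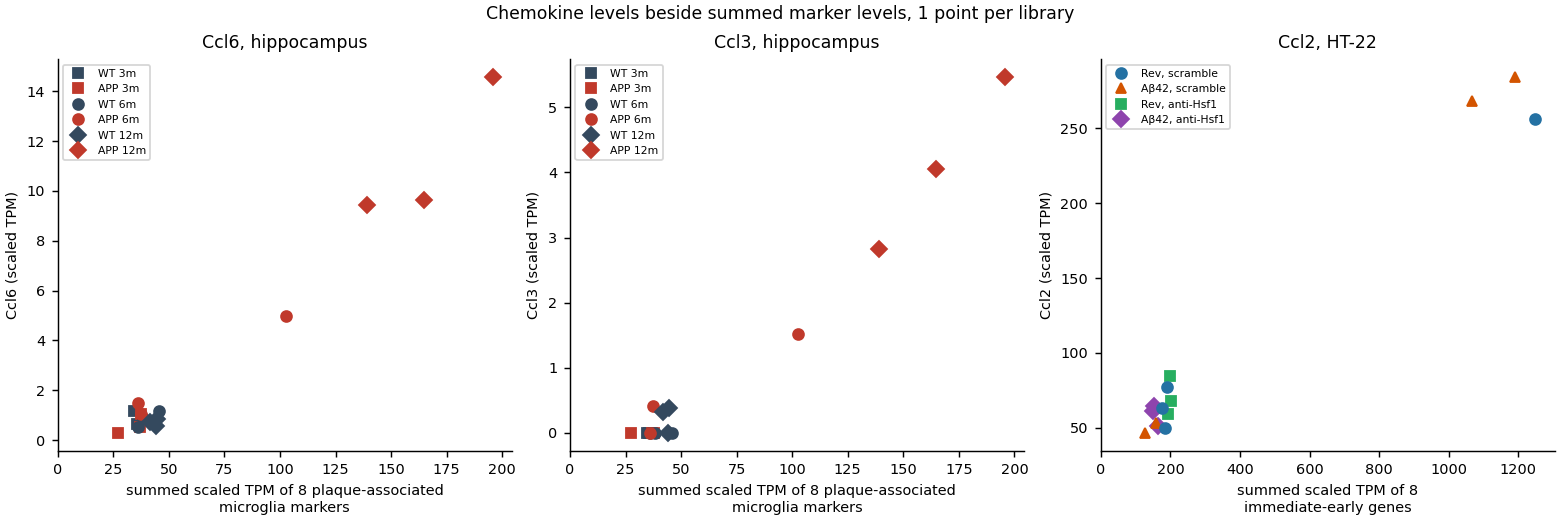
Ccl6 and Ccl3 scaled TPM against the summed scaled TPM of 8 plaque-associated microglia markers in the 17 hippocampus libraries, and Ccl2 against the summed scaled TPM of 8 immediate-early genes in the 14 HT-22 libraries, with 1 point per library. The 3 libraries of 12-month APP and replicate 2 of APP at 6 months (marker sum 103) lie apart in the first 2 panels, and 3 scramble libraries with sums of 1066 to 1248 in the third.

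The receptors of these ligands were mostly low and were mostly not called, which does not show that they were unchanged. Of 23 chemokine receptor genes 12 were tested with the lower filter, and 0 were called at 12 months by limma, with 2 at an unadjusted p below 0.05. Cxcr4, the receptor of Cxcl12, had a mean of 2.64 ± 1.26 in 12-month APP and 1.13 ± 0.0769 in WT (SD, n = 3 each, limma, adjusted p = 0.385). Ccr2 had 0.187 ± 0.158 and 0.0587 ± 0.0490, and Cxcr3 had 0.117 ± 0.108 and 0.154 ± 0.136. The Cx3cl1 receptor Cx3cr1, a microglial gene, had 13.97 ± 9.43 and 14.2 ± 1.94. Ackr3 had 3.65 ± 0.364 and 3.62 ± 0.294, and the Cxcl16 receptor Cxcr6 had 0.918 ± 0.158 and 0.680 ± 0.409. From 3 to 12 months in APP 1 of the 12 was called, the atypical receptor Ccrl2 (0.0554 ± 0.0557 to 0.564 ± 0.0663, log2 change 0.57 ± 0.11, limma, adjusted p = 0.0140).

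Of 28 other chemokine ligands 12 were tested with the lower filter, and 0 were called in any of the 7 hippocampus comparisons by limma, with 1 at an unadjusted p below 0.05 at 12 months. Ccl5 had a mean of 1.03 in 12-month APP and 0.347 in WT (log2 change 0.47 ± 0.35, adjusted p = 0.886). Of the 3 processing proteases Adam10, Adam17 and Dpp4, 0 were called at 12 months by limma and 0 had an unadjusted p below 0.05. Adam10 had 31.1 ± 0.253 in APP and 28.01 ± 1.59 in WT, and Adam17 had 6.03 ± 0.256 and 4.91 ± 0.234.

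Of 19 inducers and transcription factors 15 were tested with the lower filter, and 2 were called at 12 months, both higher, with 9 at an unadjusted p below 0.05. Over all 27955 genes 0.422% were called. Tlr2, a pattern-recognition receptor, was at 2.99 ± 0.346 in APP and 0.497 in WT (log2 change 1.42 ± 0.19, limma, adjusted p = 0.00382). Nfkb2, an NF-kB subunit, was at 1.37 ± 0.261 and 0.321 (0.84 ± 0.16, adjusted p = 0.0368). From 3 to 12 months in APP, where 8 of the 15 had an unadjusted p below 0.05, Tlr2 alone was called (1.35 ± 0.19, limma, adjusted p = 0.00305). Irf1, an interferon-regulated factor, rose from 2.90 ± 0.273 to 6.43 ± 2.55 in the standard fit (0.88 ± 0.23, adjusted p = 0.0485) and missed the threshold with the lower filter (adjusted p = 0.0660). Tnf and Il1b were barely detected, with means of 0.259 and 0.366 in 12-month APP.

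HT-22 cells made another set of chemokines. Ccl2 and Ccl7 were abundant in all 14 libraries, Cxcl10 was present in all 14, and Ccl3, Ccl4 and Ccl12 were at 0 in all 14. Cxcl12 was at 0.195 in 1 library (reverse peptide with scramble, replicate 1) and at 0 in the other 13. Ccl6 lay between 0 and 1.64, Cxcl16 between 0 and 1.10 and Cx3cl1 between 0 and 0.366. Ccl9, a neighbour of Ccl6, was at 10.8 to 28.02. The neutrophil-attracting Cxcl1 had group means from 27.8 to 43.1 and Cxcl5 from 41.0 to 55.6.

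With 1 set of scaling factors over all 31 libraries, Ccl2 had a median of 44.4 in HT-22 and 0 in hippocampus and Ccl7 43.4 and 0, while Cx3cl1 had 0.0416 and 158 and Cxcl12 0 and 5.79. Cxcl10 had 3.39 and 0.318. The highest hippocampus value of Ccl2 (1.55) lay below the lowest of HT-22 (32.5), and for Cx3cl1 the order was the opposite (42.6 the lowest in hippocampus and 0.255 the highest in HT-22). Tissue and cell line differ in source, growth and library set, so these levels are given side by side with no test.

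Ccl2 was at 46.7, 53.5, 268 and 284 with Aβ42 and scramble, and at 77.5, 63.1, 49.9 and 256 with the reverse peptide and scramble. Under anti-Hsf1 it was at 61.4, 64.7 and 51.5 with Aβ42 and at 59.3, 84.3 and 67.7 with the reverse peptide. The 3 values above 250 belong to the 3 libraries high in immediate-early genes, and the other 11 lay between 46.7 and 84.3 whatever the peptide or LNA. Ccl7 split in the same way, with 148, 164 and 136 in those 3 libraries and 37.0 to 68.9 in the other 11. Their relative depth was 1.20 to 2.60, against 0.724 to 1.21 in the other 11. Ackr3, a decoy receptor that can take up Cxcl12, was at 18.9 to 27.1 in the 3 libraries and at 2.95 to 5.72 in the others. Cxcl10 did not split as clearly. It was at 4.68 to 6.57 in the 3 libraries and 2.23 to 4.63 in the other 5 scramble libraries, ranges that nearly touched. Under anti-Hsf1 it was at 4.70 to 7.36, a range that overlaps the 3 libraries. The 3 libraries were also high in Col1a1 (1309 to 1492, against 588 to 832). Their summed mural cell list was at 90.4 to 122, against 34.7 to 44.96. Only 2 of its 5 genes averaged 1 TPM or more in HT-22. The plaque-associated microglia sum was higher there too (203 to 211, against 87.5 to 104). The general microglia sum was at 77.6 to 79.0, against 34.7 to 43.45, so these sums name no cell type.

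**Figure D5:**
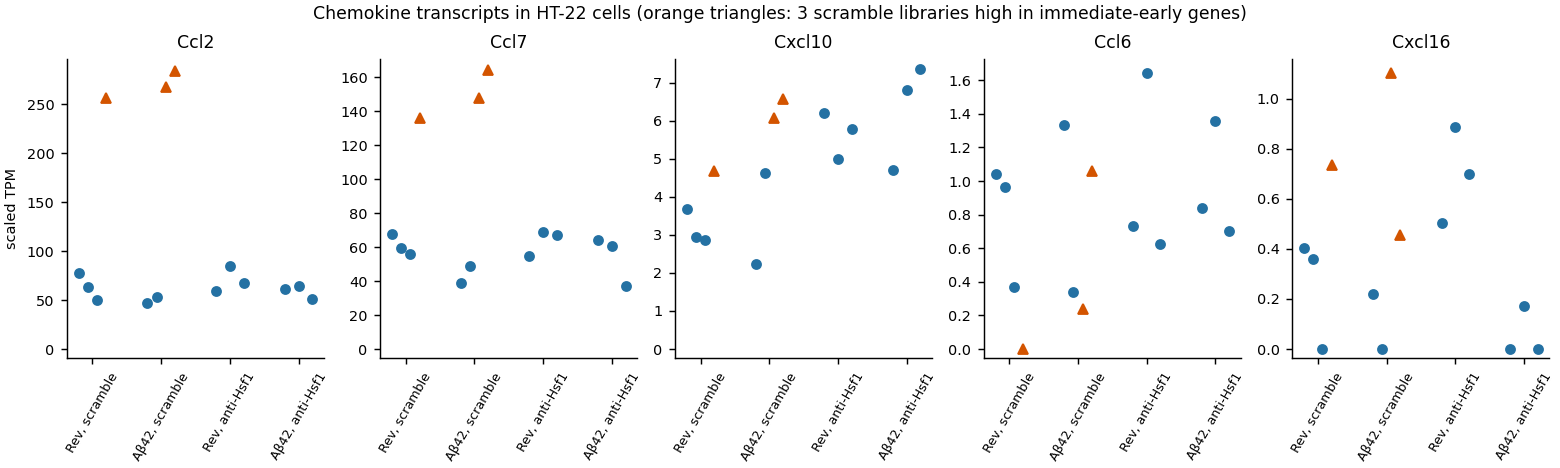
Scaled TPM of Ccl2, Ccl7, Cxcl10, Ccl6 and Cxcl16 in the 14 HT-22 libraries by peptide and LNA, with orange triangles for the 3 scramble libraries high in immediate-early genes and blue circles for the other 11. Ccl2 and Ccl7 are at 256 to 284 and 136 to 164 in the triangles, above every circle. Cxcl10 triangles nearly touch the scramble circles below them and overlap the anti-Hsf1 circles.

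The peptide comparisons showed no call. With Aβ42 against the reverse peptide under scramble 0 of 3 chemokines were called and 0 had an unadjusted p below 0.05, where 0% of 17291 genes were called. The changes were 0.40 ± 0.60 for Ccl2 (limma, adjusted p = 0.954), 0.15 ± 0.43 for Ccl7 (0.979) and 0.32 ± 0.26 for Cxcl10 (0.953) on the log2 scale. Without the 3 libraries, a choice made after seeing the data, they were -0.32, -0.48 and 0.04, so the direction of Ccl2 and Ccl7 rested on those libraries. Under anti-Hsf1, 0 of 3 were called and 0 had an unadjusted p below 0.05, where 0% of genes were called, with changes of -0.24 ± 0.69 for Ccl2, -0.26 ± 0.50 for Ccl7 and 0.12 ± 0.30 for Cxcl10 (limma, adjusted p = 1.0 each). Cxcl16 was at 0, 0.172 and 0 with Aβ42 and at 0.503, 0.887 and 0.701 with the reverse peptide under anti-Hsf1, ranges that did not overlap. Its change in the fit with the lower limit was -0.68 ± 0.26 (limma, unadjusted p = 0.0210, adjusted p = 0.953).

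Anti-Hsf1 against scramble gave no call of a chemokine. With the reverse peptide 0 of 3 were called and 0 had an unadjusted p below 0.05, where 0% of genes were called, and the log2 changes were -0.35 ± 0.65 for Ccl2, -0.23 ± 0.47 for Ccl7 and 0.57 ± 0.28 for Cxcl10 (limma, adjusted p = 0.959, 0.964 and 0.959). Without replicate 4 of the scramble group, 1 of the 3 libraries, Ccl2 was at 0.15 and Ccl7 at 0.05, the opposite direction. With Aβ42 0 of 3 were called and 0 had an unadjusted p below 0.05, where 0.0231% of genes were called. The log2 change was -0.99 ± 0.65 for Ccl2 (limma, adjusted p = 0.591), -0.64 ± 0.47 for Ccl7 (0.615) and 0.36 ± 0.28 for Cxcl10 (0.630). The values of Ccl2 and Ccl7 passed with TPM as deposited (-1.70, adjusted p = 0.0420, and -1.35, adjusted p = 0.0245) and that of Ccl2 with array weights (-1.65, adjusted p = 0.0403), settings under which 8766 and 1768 of all genes passed in place of 4. Without the 3 libraries the changes were 0.23 for Ccl2, 0.27 for Ccl7 and 0.75 for Cxcl10 (limma, adjusted p = 0.803, 0.799 and 0.534). The peptide by LNA interaction had 0 of 3 called and 0 with an unadjusted p below 0.05, where 0% of genes were called, and its Ccl2 term was -0.64 ± 0.92 (limma, adjusted p = 0.999). With the lower limit 0 of 6 chemokines were called by limma in each of the 5 HT-22 comparisons, where 0% of genes were called in 3 and 0.00435% in the other 2. Cxcl16 in the comparison of peptides under anti-Hsf1 was the only one of them with an unadjusted p below 0.05.

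HT-22 cells had none of the receptors Ccr1, Ccr2, Ccr3, Cxcr3 and Cxcr4 above 0 in any of the 14 libraries. Over these libraries, the genes whose log2 levels were most like those of Ccl2 were Phlda1 (Pearson r = 0.991), Arl6ip5 (0.986) and Etv5 (0.985). For Ccl7 they were Tagln2 (0.975), Ccl2 (0.966) and Anxa2 (0.965), and for Cxcl10 Tgds (0.898), Atg101 (0.838) and Srl (0.824). In hippocampus the genes most like Cxcl12 were Tmem120b (0.836), Ints1 (0.803) and Gm42782 (0.771), and those most like Cx3cl1 were Gm44705 (0.773), Btbd7 (0.758) and Phospho1 (0.752). In HT-22 the 3 high libraries lay apart in Ccl2 and Ccl7, and the likeness without them was not computed.

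Opposite-strand genes overlap 4 of the 10, which matters where strand was not used in counting. They are Gm17268 at Ccl2, E230016K23Rik at Ccl6, Art3 at Cxcl10 and Zmynd15 at Cxcl16, and their highest TPM in any library was 1.5, 3.02, 2.71 and 0.222. How these levels compare with the chemokine within a library was not examined.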

How the data were processed

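Long RNA from 17 hippocampus and 14 HT-22 libraries was fragmented, depleted of ribosomal RNA and sequenced, per the labels' protocols. The authors deposited 1 table per library with TPM, FPKM and a Coverage signal for each gene, per the file headers. The submitters' processing notes name cutadapt 1.18, HISAT2 2.1.0, BWA 0.7.17, StringTie 1.3.4d and bedtools 2.26.0 without their roles, and the genome build mm10 (GRCm38). TPM was summed per gene identifier and divided by median-of-ratios factors (0.686 to 1.46 in hippocampus, 0.638 to 1.24 in HT-22). The FPKM values the authors deposited served, with Coverage, for relative depth; reads per gene are unknown, so no count model was run. For the tests limma 3.58.1 under R 4.3.3 was used with trend and robust options, 1 fit per system and 12 contrasts in all. On simulated data with 200 changed genes, the hippocampus fit of 12-month APP against WT (17840 genes) recovered 64% of changes of 1 log2 unit and 95% of 2. The HT-22 fit of Aβ42 against reverse peptide under scramble (17291 genes) recovered 51% and 91%. Unchanged genes called numbered 9 in the hippocampus fit and 15 in the HT-22 fit. The simulated noise was normal and independent between genes and libraries, with no shift shared by genes such as that of the 3 scramble libraries. The changed genes all averaged 1 TPM or more. These shares thus do not cover the low chemokines or that shift. No 2 libraries had identical values. All 10 members are named. From other lists, genes called in a contrast, the members' receptors and the markers needed for ranges are named, with the 3 genes most correlated with each member of mean level at least 1. Ccl9, Cxcl1, Cxcl5, Ccl5, Ccl11, Ccl8, Tnf, Il1b, the proteases and Col1a1 were named after their values were seen. One of the receptors is not reported here. The members and gene lists were chosen with earlier results of these data known. The 31 short-RNA libraries were not used here.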

Additional observations from a re-analysis of the deposited data

Results flagged for a closer look

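In groups of 4 libraries, a value is listed here where its gap to the nearest other value, as a share of the group's range, was above Dixon's 95% limit. Chance gives this in about 1 of 20 groups, and 13 group values were examined. With reverse peptide and scramble LNA, Ccl2 was at 256.3 and Ccl7 at 136.1 in replicate 4, a gap of 0.866 and 0.853 of the range. That library is 1 of the 3 with high immediate-early genes. In the same group Cxcl12 was at 0.1945 in replicate 1 and at 0 in the other 3. Groups of 2 or 3 libraries were not examined in this way.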

How the results depend on the processing

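Results for single chemokines kept their side of the threshold except as given beside them, and no called value changed sign. The count of chemokines called at 12 months was 1 in the standard fit. It was 4 with no filter, with a mean TPM of at least 0.1 and with that filter and TPM as deposited, 3 with that filter and a pseudocount of 0.1, 2 with only the groups compared, and 0 with a mean of at least 5, which leaves out Ccl6. Leaving out each library in turn gave 1 in every case, and 4 to 5 with the lower filter. From 3 to 12 months in APP the count was 1, and 5 with no filter, with the lower filter, with it and TPM as deposited, and with it and a pseudocount of 0.1, 2 with only the groups compared and 0 with a mean of at least 5. Leaving out each library gave 1 to 2 (2 without replicate 3 of APP at 12 months, adding Cx3cl1), and 4 to 5 with the lower filter. With TPM as deposited the count went from 0 to 1 at 6 months and from 3 to 6 months in APP, and from 0 to 2 for anti-Hsf1 against scramble with Aβ42, where array weights gave 1. The interaction went from 0 to between 0 and 1, with 1 without replicate 2 of APP at 6 months. The cause of these shifts was not tested.

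Counts over all genes moved more. At 3 months 53 became 35 with no filter, 27 with a mean of at least 0.1, 26 with that and a pseudocount of 0.1, 17 with array weights and 4 with only the groups compared. At 6 months 255 became 10339 with TPM as deposited, 101 with no filter, 157 with the lower filter, 385 with a mean of at least 5 and 40 with only the groups compared. At 12 months 81 became 50 with a mean of at least 5, 167 with array weights, 135 with Coverage and 137 with the lower filter and TPM as deposited. From 3 to 6 months in APP 386 became 1270, 169, 249, 221, 164 and 2 (TPM as deposited, no filter, lower filter, that with pseudocount 0.1, array weights, only the groups compared). From 3 to 12 months 596 became 286 with TPM as deposited, 296 with that and the lower filter, and 143 with only the groups compared. The interaction count of 4 became 0 with TPM as deposited, 7 with a mean of at least 5 or a replicate block and 8 with array weights. WT from 6 to 12 months went from 0 to 2 with no filter and 1 with only the groups compared. Leaving out single libraries gave 8 to 369, 63 to 275 and 26 to 48 at the 3 ages, 33 to 555 and 149 to 748 within APP, 0 to 4 in WT and 0 to 43 for the interaction. In HT-22, TPM as deposited gave 4197 (Aβ42 against reverse under anti-Hsf1), 8766 (anti-Hsf1 against scramble with Aβ42) and 4379 (interaction) in place of 0, 4 and 0, and array weights gave 13, 1768 and 11. Every other HT-22 alternative gave 0 to 16.

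The replicate numbers are not said to mark a shared animal or batch, and by the correlation of their deviations most same-numbered libraries did not deviate together: the median was -0.007 over 40 pairs in hippocampus, with 3 above 0.1, and 0.015 over 19 pairs in HT-22, with 3 above 0.1 and the highest at 0.575. With the number as a replicate block, Ccl6 changed by 2.81 at 12 months (adjusted p = 0.00181), and all 36 chemokine results of the standard fit kept their side of the threshold. Low coverage limits Ccl2, Ccl3, Ccl4, Ccl12, Cxcl10 and Cxcl16 in hippocampus: a value of 0 there means not detected at this depth.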
